A study of Mus musculus with 4 samples.

Results

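The cytosolic ribosomal protein genes and their paralogs were examined in immortalized mouse dermal fibroblasts (imMDFs), with *Tmpo* KO cells set against *Tmpo* WT cells. A transcript ID belonged to the set when its RefSeq gene symbol followed the Rpl or Rps naming pattern, with the endings a, l, x, l1 and l3 allowed, or was *Rplp0*, *Rplp1*, *Rplp2* or *Rpsa*. Symbols of pseudogenes were left out. The rule found 103 of the 32757 IDs in the count tables, which stand for 84 of 23732 genes. Of these genes 52 carry an Rpl symbol and 32 an Rps symbol. A total of 73 genes had a single ID, and the other 11 shared 30 IDs between them.

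Each ribosome is built from a large and a small subunit, and the Rpl and Rps genes encode their proteins, which are needed in nearly equal amounts in every growing cell. Their mRNAs are among the most abundant of the cell and carry a terminal oligopyrimidine tract, through which mTORC1 controls their translation. The genome also holds many retrocopies of these genes, most of them dead, and a few expressed paralogs that replace the parent protein in particular tissues. *Rpl39l* and *Rpl10l* are known from the mouse testis, and *Rpl3l* from heart and skeletal muscle.

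The knockout cells were *Tmpo* KO imMDFs (Lap2alpha -/-), which lack LAP2alpha, the nucleoplasmic splice form of lamina-associated polypeptide 2, and the comparison cells were *Tmpo* WT imMDFs (Lap2alpha +/+). Both lines came from dermis, were immortalized, and received no treatment. There were 2 RNA sequencing libraries per genotype, with replicate 1 taken at passage 34 and replicate 2 at passage 42. The sources name 1 line per genotype and no separate cultures beyond the passages, so a difference between the genotypes and any other difference between the lines cannot be told apart, and p-values capture no more than the scatter among the 4 libraries, which can be technical. Reads given to transcripts numbered 15786136 and 19603812 in KO at passages 34 and 42, against 12168433 and 15677378 in WT. The LAP2alpha transcript of *Tmpo* had 6 and 6 counts in KO and 903 and 1324 counts in WT, so the libraries matched their labels. The knockout deletes an exon of this transcript, so these counts follow the genotype and do not measure its expression.

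These genes are hard to count, because reads that fit a gene and a retrocopy equally well have a low mapping quality and were removed before counting. A search of the mm9 genome with the coding sequences of 81 member genes found at least 1 further place with 95% identity over 80% of the coding length for 75 of them. The median was 5 such places and the highest number was 55, for *Rpl21*. *Rpl39l*, *Rps27l*, *Rps3*, *Rpl8* and *Rpl3l* were among those with 0. Levels of most members therefore are lower bounds, while a KO over WT ratio compares the same countable bases in all 4 libraries. In bulk RNA, fewer cells with a transcript and less of it per cell cannot be told apart.

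*Rpl39l* was the 1 member called between the genotypes, out of 72 member rows tested, where 2.75% of all tested rows were called. It reached the 1 CPM needed for testing in the KO libraries alone. Its increase was known from earlier results of these data when the members were chosen. Its parent *Rpl39* encodes a very small protein beside the exit tunnel of the ribosome and had 8 near-identical places in the genome. The coding sequences of *Rpl39l* (chromosome 16) and *Rpl39* (chromosome X) are shown because reads of the pair are told apart by the bases at which they differ. Both are from GENCODE for NCBIM37 (mm9), and capitals mark the bases at which they differ.
Rpl39l: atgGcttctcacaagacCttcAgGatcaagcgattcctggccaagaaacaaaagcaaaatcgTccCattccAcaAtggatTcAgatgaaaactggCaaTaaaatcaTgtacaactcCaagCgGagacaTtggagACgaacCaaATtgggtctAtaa
Rpl39: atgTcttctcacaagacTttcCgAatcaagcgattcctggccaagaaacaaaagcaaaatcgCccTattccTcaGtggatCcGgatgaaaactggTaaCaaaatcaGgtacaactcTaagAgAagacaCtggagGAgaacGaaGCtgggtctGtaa
Of 156 bases 23 differed, which is 85.3% identity. The longest stretch without a difference was 38 bases.

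*Rpl39l* (NM_026594, mm9 chr16:10170319-10175004, plus strand) was abundant enough to count in *Tmpo* KO imMDFs and close to absent from *Tmpo* WT imMDFs. It had 134 and 195 counts in KO at passages 34 and 42, against 1 and 5 counts in WT. As CPM, which scale counts to the reads given to transcripts after TMM normalization, these were 8.23 and 10.1 in KO, against 0.0839 and 0.318 in WT. The lowest KO library was far above the highest WT library. The log2 fold change over both passages was 5.37 (standard error 0.543, adjusted p = 4.74e-04, edgeR's quasi-likelihood test over 13855 transcripts). At passage 34 the KO level was 98.1 times the WT level (95% exact interval 17.3 to 3901), and at passage 42 it was 31.7 times (13.4 to 98.8). These intervals cover counting error only, and the WT end of both ratios rests on a handful of reads. The plot of paralogs and parents by library places both KO points of *Rpl39l* well above both WT points.

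**Figure D1:**
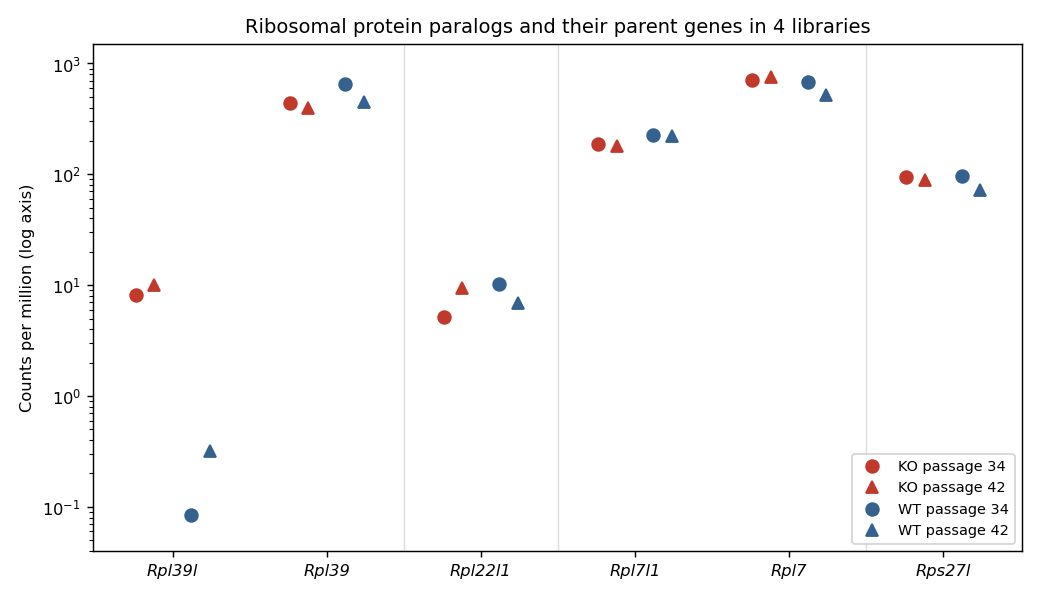
CPM on a log axis of *Rpl39l* with its parent *Rpl39*, of *Rpl22l1*, of *Rpl7l1* with *Rpl7*, and of *Rps27l*, with KO libraries in red to the left of WT libraries in blue, circles for passage 34 and triangles for passage 42. *Rpl39l* was at 8.23 and 10.1 CPM in KO against 0.0839 and 0.318 CPM in WT, while the KO and WT points of the other genes lie close together.

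The rise of *Rpl39l* left it a small share of the pair. *Rpl39* had 443 and 398 CPM in KO, against 652 and 448 CPM in WT. Both KO libraries were below both WT libraries, but the log2 fold change of −0.39 (standard error 0.232) had an adjusted p of 0.573 in edgeR's quasi-likelihood test. Per kilobase of exon, *Rpl39l* made up 2.03% and 2.74% of the summed *Rpl39l* and *Rpl39* level in KO, against 0.0143% and 0.0790% in WT. Reads of *Rpl39* that also fit its copies are missing from this sum, so the shares are upper values. Even with the KO libraries included, *Rpl39l* had the lowest level per kilobase, 8.51 CPM per kilobase on average, of the 66 tested single-ID members with a usable length.

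The other paralogs gave no call. *Rpl7l1*, a relative of *Rpl7* that takes part in building the large subunit, had 187 and 180 CPM in KO, against 227 and 223 CPM in WT. The groups did not overlap, and the log2 fold change was −0.30 (standard error 0.191, adjusted p = 0.610, edgeR's quasi-likelihood test). *Rpl22l1*, the paralog of *Rpl22*, had 5.16 and 9.36 CPM in KO and 10.2 and 6.93 CPM in WT, which overlap. *Rps27l*, a p53 target gene with no near-identical copy, had 94.7 and 89.8 CPM in KO and 97.0 and 71.6 CPM in WT, which also overlap. The parent gene *Rpl7* was at 709 and 754 CPM in KO and 688 and 519 CPM in WT (log2 fold change 0.28, adjusted p = 0.717).

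Several paralogs and *Rpl26* were too low to test. *Rpl10l*, the testis counterpart of *Rpl10*, had 13 and 10 counts in KO against 3 and 6 in WT. The 2 IDs of *Rpl3l* had at most 13 counts in any library. *Rps4l*, a noncoding relative of *Rps4x*, had 33 and 16 counts in KO and 12 and 13 in WT. *Rpl32l* had 5 and 15 counts in KO and 8 and 16 in WT. *Rpl26*, an ordinary ribosomal protein and not a paralog, had 0 and 2 counts in KO and 0 and 0 in WT. It had 6 near-identical places in the genome, and the cause of its low counts was not tested. The parents *Rpl10*, *Rpl3* and *Rps4x* were tested, with log2 fold changes of −0.18, 0.16 and −0.16 and no call.

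The nearest gene downstream, *Atf7ip2*, starts 17801 bases after *Rpl39l* on the same strand. Its counted transcript had 26 and 19 counts in KO, against 1 and 5 in WT. It missed the limit of 1 CPM in both replicates of a genotype, and without that limit its log2 fold change was 2.54 (standard error 0.775, adjusted p = 0.0371, edgeR's quasi-likelihood test). It was picked after its values had been seen. The next tested genes, *Emp2* (log2 fold change −0.05), *Nubp1* (0.32) and, upstream, *Grin2a* (−0.27), gave no call.

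The sequences before the annotated starts are shown because 1 of the pair changed and the other did not pass the test. Both are the 250 bases upstream of the RefSeq start, from RefSeq with GRCm38.p6, and capitals mark the letters CCGGAAG, the core bound by ETS factors, searched on both strands.
Rpl39l, chr16:10169978-10170227, plus strand: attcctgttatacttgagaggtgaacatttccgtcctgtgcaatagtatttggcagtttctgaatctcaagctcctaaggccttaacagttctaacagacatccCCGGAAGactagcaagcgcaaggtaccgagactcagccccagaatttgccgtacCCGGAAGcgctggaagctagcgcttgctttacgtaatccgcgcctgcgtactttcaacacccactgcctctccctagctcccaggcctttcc
Rpl39, chrX:37085223-37085472, minus strand: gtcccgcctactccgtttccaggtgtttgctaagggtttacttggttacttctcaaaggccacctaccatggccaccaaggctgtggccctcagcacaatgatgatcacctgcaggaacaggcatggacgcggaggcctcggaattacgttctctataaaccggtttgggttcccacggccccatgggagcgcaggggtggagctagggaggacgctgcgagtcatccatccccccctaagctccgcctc
Counted over the window of 300 bases that adds the 50 bases after the start, CCGGAAG occurred 2 times at *Rpl39l* and 1 time at *Rpl39*. Of 75 promoters of 63 member genes with an entry, 34.7% held these letters, against 8.86% of all 32851 promoters of this length. GGGCGG, the core of the SP1 site, was in 58.7% of member promoters and in 35.7% of all. TATAAA was in 10.7% and 13.6%. The CG dinucleotide occurred 17 times in each of the 2 windows, against a median of 21 in member promoters and 7 in all promoters. These are matches of letters and not sites. CCGGAAG and GGGCGG each hold a CG, so their shares and the CG count are not separate observations.

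Among the rows called in the same test, those whose profile over the 4 libraries lay nearest to *Rpl39l* were *Ifi27l2b*, *Crabp1*, *Hoxb7*, *Gpr149* and *Tenm4*. Likeness was the Euclidean distance of mean-centred log2 CPM, from 0.694 for *Ifi27l2b* to 1.18 for *Tenm4*. *Crabp1*, a retinoic acid binding protein, had 32.5 and 77.4 CPM in KO against 1.01 and 1.97 CPM in WT.

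Apart from *Rpl39l*, no ribosomal protein gene passed the test. Of 103 IDs 72 were high enough to be tested, 69 of them single-ID genes. The call rate over all 13855 tested transcripts was 2.75%, with 1.51% higher and 1.24% lower in KO. Among the 72 member rows 1 was called higher and 0 lower, so the share called does not stand out from the background. At an unadjusted p under 0.05 there were 2 member rows, *Rpl39l* and *Rpl34*, or 2.78%, against 12.8% of all rows. Both KO libraries were above both WT libraries in 12 member rows (16.7%), against 21.9% of all rows. Both were below in 3 member rows (4.17%), *Rpl30*, *Rpl39* and *Rpl7l1*, against 19.9% of all rows.

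The fold changes of the remaining members lay close to 0. Over the 68 tested single-ID genes without *Rpl39l* the median log2 fold change was −0.00, with 34 above and 34 below 0. Their SD was 0.181 and their range −0.39 to 0.53. All tested rows had a median of 0.02 and an SD of 0.594. Of the 68 genes 67, or 98.5%, were within 0.5 of 0, against 89.2% of the rows with at least 100 CPM. The standard errors of these 68 fold changes were between 0.191 and 0.431, with a median of 0.224, so a difference of this size would not be resolved for a single gene. The medians of the large and the small subunit were 0.01 (40 genes) and −0.04 (28 genes).

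Summed over all members, the KO levels lay within the spread of the WT levels. The sum was 60361 and 61489 CPM in KO, against 67524 and 53331 CPM in WT, or 60925 ± 798 and 60427 ± 10036 CPM (SD, n = 2 each). Both KO libraries lay between the WT libraries, and an exact two-sided permutation test gave p = 1, where the smallest p this design allows is 0.333. As a share of the reads given to transcripts, members made up 6.23% and 6.06% in KO and 6.62% and 5.35% in WT. The large subunit summed to 37795 and 38280 CPM in KO and 42253 and 33250 CPM in WT. The small subunit summed to 22565 and 23209 CPM in KO and 25272 and 20080 CPM in WT.

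**Figure D2:**
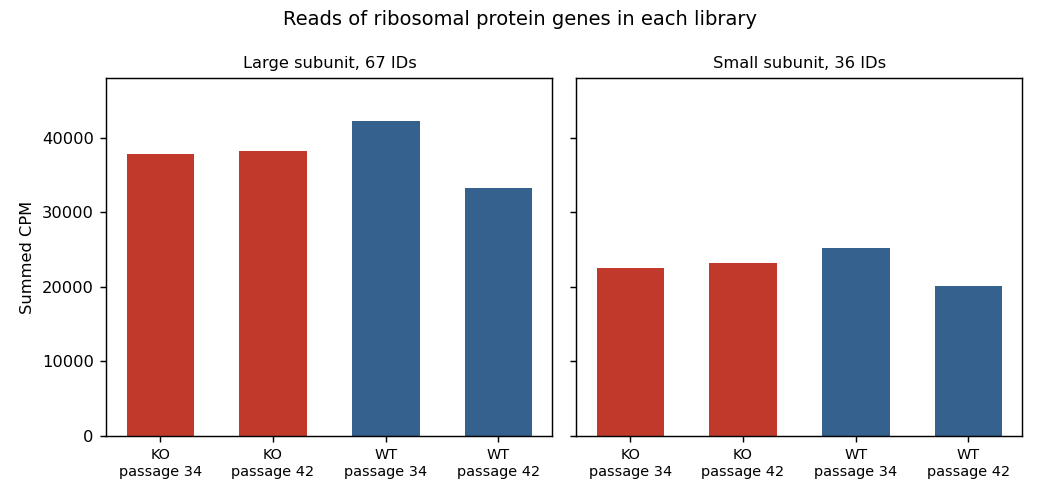
Summed CPM of the 67 IDs of the large subunit and the 36 IDs of the small subunit, 1 bar per library, KO in red to the left of WT in blue. In both panels the KO bars lie between the WT bars, with the highest bar in WT at passage 34 and the lowest in WT at passage 42.

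In WT the passages differed in a way that most members shared. In KO passage 42 differed from passage 34 by a median log2 difference of 0.09, with 24 of 68 genes lower at passage 42, against 47.8% of all rows. The KO median of rows with at least 100 CPM was close to this, at 0.07. The SD in KO was 0.356 for the members and 0.384 for those rows. In WT the members were lower at passage 42 than at passage 34 in 67 of 68 genes, with a median log2 difference of −0.34. Over all tested rows 50.7% were lower at passage 42 in WT, with a median of −0.01, and over rows with at least 100 CPM 49.9% were. The exception in WT was *Rpl29*, named after its values were seen, with 788 and 799 CPM at passages 34 and 42. The members moved as a block in WT, with an SD of the passage differences of 0.167, against 0.331 for the rows with at least 100 CPM.

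Between the genotypes, KO was below WT at passage 34 and above it at passage 42 in most members. These differences come from the same 4 libraries as the passage changes above, whose medians were −0.34 in WT and 0.09 in KO. They are not a separate observation. The median log2 difference, KO minus WT, was −0.19 at passage 34, where 54 of 68 genes were lower in KO. It was 0.20 at passage 42, where 60 were higher. Both signs held in 47 genes, or 69.1%, against 20.1% of all rows and 21.7% of rows with at least 100 CPM. There were 13 genes higher in KO at both passages and 7 lower at both. With 1 library per genotype and passage, neither difference has a test of its own, and the libraries of a genotype differed by passage and by library at once, so passage and library cannot be told apart. Members share each library and are not replicates of it.

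The laminin receptor and the stalk proteins illustrate these levels. *Rpsa*, a small subunit protein also known as the laminin receptor, had 2769 and 2632 CPM in KO, against 2981 and 2087 CPM in WT. *Rplp0*, the base of the stalk that recruits elongation factors, had 2665 and 2854 CPM in KO, against 3557 and 2380 CPM in WT. *Rplp1*, which pairs with *Rplp2* on that stalk, was higher in KO at both passages, with 2228 and 1771 CPM in KO against 2206 and 1313 CPM in WT. *Rplp2* had 136 and 145 CPM in KO, against 142 and 117 CPM in WT. In each of the 4 genes the KO and WT values overlapped, with fitted log2 fold changes of 0.09, −0.11, 0.18 and 0.11.

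**Figure D3:**
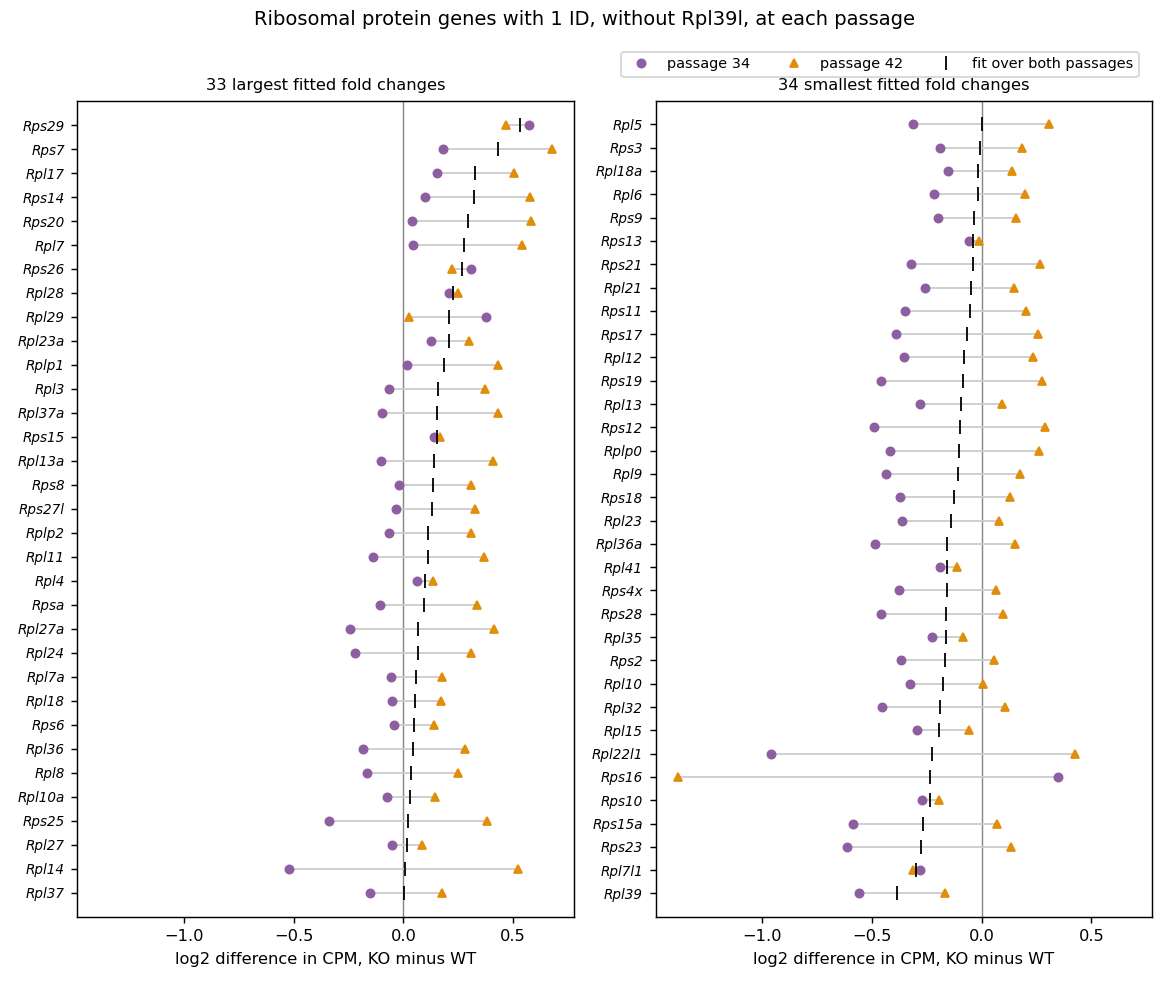
log2 difference in CPM, KO minus WT, of 67 of the 68 tested single-ID genes without *Rpl39l* at passage 34 (purple circles) and passage 42 (orange triangles), with the fitted log2 fold change as a black tick, in the order of that tick. In most genes the circle lies left of 0 and the triangle right of it, and *Rps16* is drawn out in the opposite direction, with 0.35 at passage 34 and −1.38 at passage 42.

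The fold changes were set against the median of the other tested rows on the chromosome that carries each gene. Over the tested single-ID genes without *Rpl39l* the distance from that median ran from −0.31 to 0.26, so members departed on both sides. *Rps26* was at 0.27 on chromosome 10, with a median of 0.01, and *Rpl22l1* at −0.23 on chromosome 3, with a median of 0.08. The 4 highest fold changes lay close to the medians of their chromosomes. The highest were *Rps29* (log2 fold change 0.53, standard error 0.254, adjusted p = 0.429) and *Rps7* (0.43, standard error 0.218, adjusted p = 0.468), followed by *Rpl17* and *Rps14* (0.32 each) and *Rps20* (0.29). None passed edgeR's quasi-likelihood test. *Rps29* had 216 and 142 CPM in KO, against 145 and 102 CPM in WT, which overlap. *Rps7* had 755 and 897 CPM in KO, against 665 and 562 CPM in WT, with no overlap. *Rpl17* had 1701 and 1850 CPM in KO against 1531 and 1306 CPM in WT, and the human counterpart of *Rps14*, at 916 and 971 CPM in KO against 856 and 651 CPM in WT, is the gene lost in the 5q- syndrome.

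*Rps29* and *Rps7* lie on chromosome 12, and *Rpl17* and *Rps14* on chromosome 18, which hold no other tested single-ID member. The other 447 tested rows of chromosome 12 had a median log2 fold change of 0.45, and the other 410 rows of chromosome 18 had 0.35. At passages 34 and 42 the chromosome 12 rows stood at 0.32 and 0.54, and those of chromosome 18 at 0.32 and 0.42. Relative to its chromosome *Rps29* was 0.08 higher, *Rps7* 0.02 lower, and *Rpl17* and *Rps14* each 0.03 lower. These differences were smaller than the standard errors of the 4 genes, which does not set the genes apart. Over the 68 genes the SD after subtracting the chromosome's median was 0.117, against a median standard error of 0.224. *Rps20*, on chromosome 4 with a median of 0.13, was 0.16 above it, with a standard error of 0.229.

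At the other end stood *Rpl39* (−0.39), *Rpl7l1* (−0.30), *Rps23* and *Rps15a* (−0.27 each) and *Rps10* (−0.24). *Rps23*, a protein of the decoding centre, had 225 and 242 CPM in KO, against 345 and 221 CPM in WT. *Rps15a* had 156 and 184 CPM in KO and 234 and 175 CPM in WT. *Rps10* had 825 and 655 CPM in KO and 995 and 749 CPM in WT. In all 3 the genotypes overlapped. *Rps23* is on chromosome 13, where the other rows had a median of −0.22, and *Rpl7l1* and *Rps10* are on chromosome 17, where it was −0.14. Set against these medians the differences were −0.06 for *Rps23*, −0.16 for *Rpl7l1* and −0.10 for *Rps10*. *Rpl39*, on chromosome X with a median of −0.13, stood at −0.25 from it. *Rps15a*, on chromosome 7 with a median of 0.02, stood at −0.29 from it, with a standard error of 0.216. None of these differences was tested.

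Over the 19 chromosomes that carry a tested single-ID member, the median of the members and the median of the other rows had a Pearson r of 0.894 and a Spearman rho of 0.804. Without chromosomes 12 and 18, the 2 farthest out, the values over 17 chromosomes were 0.751 and 0.725. Both medians had the same sign on 16 of 19 chromosomes. Across the 68 genes, which share the libraries and often the chromosome, r was 0.765. The SD of the members' log2 fold changes was 0.181 before and 0.117 after the chromosome's median had been subtracted, and 41 of 68 genes lay within 0.1 of it. These values describe 4 libraries of 2 lines, and the part of the chromosomes' shifts in the members' values was not tested.

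**Figure D4:**
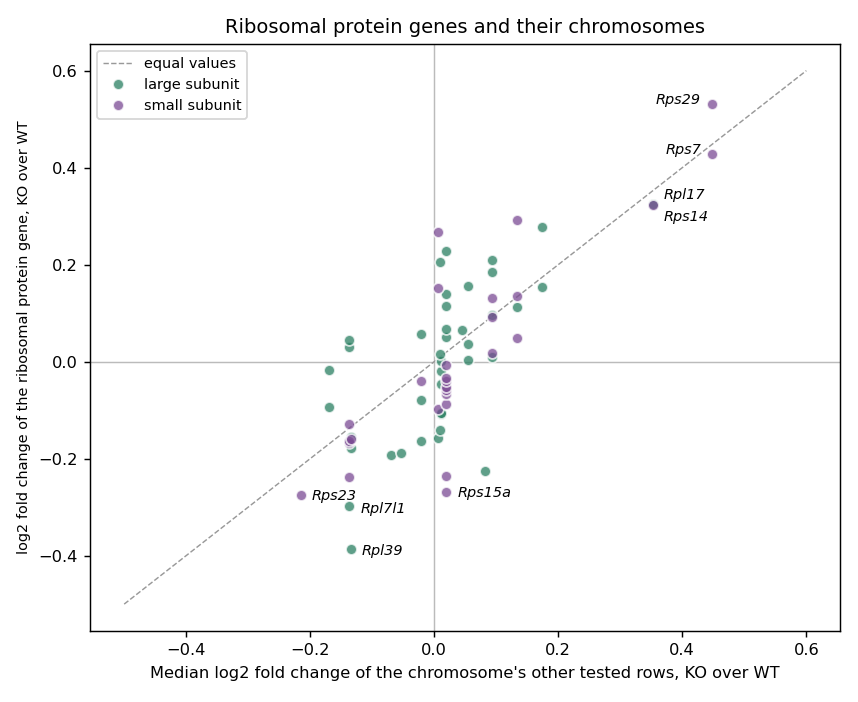
log2 fold change, KO over WT, of each of the 68 tested single-ID genes without *Rpl39l* (y axis) against the median log2 fold change of the other tested rows of its chromosome (x axis), green for the large and purple for the small subunit. The 4 genes of chromosomes 12 and 18 sit at the upper right, between 0.32 and 0.53, and *Rps15a* and *Rpl39* lie below the dashed line of equal values.

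*Rps16* stood apart from the other members in a single library, and is named for this after its values were seen. It had 378 and 103 CPM in KO at passages 34 and 42, against 297 and 270 CPM in WT. The low value rests on 1999 counts, so counting error is small. Its log2 fold change was −0.24 (standard error 0.431, adjusted p = 0.909, edgeR's quasi-likelihood test). Without the KO library of passage 34 it was −1.47 with an adjusted p of 4.02e-05, and without that of passage 42 it was 0.37 with an adjusted p of 0.485. A call for *Rps16* thus depends on which KO library is used.

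Between members the levels per kilobase of exon spread over more than the genotypes did. Averaged over the 4 libraries the highest were *Rplp1* (3797 CPM per kilobase), *Rps2* (3345), *Rps26* (3167), *Rps28* (2613) and *Rpl23a* (2414). *Rps26*, which contacts the mRNA near the exit site, had 1660 and 1433 CPM in KO, against 1342 and 1228 CPM in WT, with no overlap. *Rps2* had 3091 and 3198 CPM in KO, against 3989 and 3075 CPM in WT. *Rps28* had 562 and 775 CPM in KO against 773 and 723 CPM in WT, and *Rpl23a*, at the tunnel exit, had 1509 and 1388 CPM in KO against 1384 and 1127 CPM in WT. The lowest levels per kilobase above *Rpl39l* were those of *Rpl22l1* (16.2), *Rpl7l1* (78.3), *Rps27l* (177) and *Rplp2* (321), the first 3 of them paralogs. Reads lost to retrocopies differ between genes and enter these levels.

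Genes with several IDs could hardly be seen, since reads in exons shared by their transcripts were set aside as ambiguous. Of their 30 IDs 16 had 0 counts in all 4 libraries, and together they made up 10.9 and 10.9 CPM in KO and 10.1 and 8.33 CPM in WT. *Rpl22*, *Rpl38* and *Rps24*, ordinary ribosomal proteins, are among those with IDs listed at 0. The 3 IDs that could be tested were low. The noncoding ID of *Rps27* had 81 and 89 counts in KO and 48 and 53 in WT (log2 fold change 0.38), while its coding ID had 0 in all libraries. *Rpl34* had 19 and 29 counts in KO and 9 and 7 in WT (1.18, unadjusted p = 0.032, adjusted p = 0.317). *Rpl30* had 10 and 16 counts in KO and 14 and 22 in WT (−0.83). Each ID stands for a part of its gene's transcripts, so none of these values measures the gene.

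Other genes that build and run the ribosome were examined in the same fit. Of all its rows 2.75% were called and 12.8% had an unadjusted p under 0.05. Of ribosomal proteins outside the naming rule 5 were tested and 0 called, with a median log2 fold change of −0.04. *Rpl36al*, on chromosome 12, had the largest value, 0.50 (adjusted p = 0.383). *Rack1* and *Rps3a1* were at 0.04 and −0.04. This group stood at −0.11 at passage 34 and 0.20 at passage 42. Of 73 mitochondrial ribosomal proteins, which serve a separate ribosome, 0 were called, with a median of 0.00 and 1 unadjusted p under 0.05, that of *Mrpl18* (−0.61). Of 39 translation factors 0 were called, with a median of 0.03 and 3 unadjusted p under 0.05. The smallest p were those of *Eif1a* on chromosome 18 (0.63, adjusted p = 0.165) and *Eif2s1* on chromosome 12 (0.59, adjusted p = 0.207).

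Of 84 tested genes of ribosome biogenesis 0 were called, against 2.75% of all rows. An unadjusted p under 0.05 was found for 7 of the 84, against 12.8% of all rows. The median log2 fold change of the 84 genes was 0.16, against 0.02 for all rows. The fold change was above 0 in 68 of the 84 genes and below it in 16, or 81.0% above, against 51.6% of all rows. The median of the list was 0.24 at passage 34 and 0.07 at passage 42. *Nol10*, a nucleolar factor on chromosome 12, had 66.9 and 60.4 CPM in KO, against 27.6 and 41.1 CPM in WT (log2 fold change 0.89, adjusted p = 0.102). *Rrs1*, which assembles the large subunit and lies on chromosome 1, had 63.9 and 44.9 CPM in KO, against 26.2 and 34.8 CPM in WT (0.83, adjusted p = 0.15). The groups did not overlap in either gene. *Nol10* passed with DESeq2 (adjusted p = 0.0454), with all reads as library size (0.0391) and with no filter (0.0316).

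Among 14 tested regulators of mTORC1, of the oligopyrimidine mRNAs and of ribosomal gene transcription 1 was called higher and 0 lower. The list held 26 genes. *Tsc1*, *Tsc2*, *Mlst8*, *Akt1s1* and *Deptor* were among those too low to test, with at most 25 counts in any library. Of all rows 1.51% were called higher and 1.24% lower. *Mycn*, a Myc family transcription factor best known from neuroblastoma, had 263 and 376 counts in KO, against 20 and 16 in WT. This was 16.1 and 19.5 CPM in KO against 1.68 and 1.02 CPM in WT, and edgeR's quasi-likelihood test gave an adjusted p of 5.12e-04 for a log2 fold change of 3.74 with a standard error of 0.386. *Mycn* lies on chromosome 12, at a median of 0.45. The 4 IDs of *Myc*, whose shared exons could not be counted, were listed at 0 in all libraries. *Mtor* had 133 and 156 CPM in KO against 84.1 and 102 CPM in WT (0.63, adjusted p = 0.175). Of 7 tested genes of the p53 response to ribosomal stress 0 were called, with a median of −0.01, and *Sesn1* had the smallest p (log2 fold change −0.69, adjusted p = 0.477). This list held 10 genes, and *Trp53*, *Cdkn1a* and *Mdm2* were too low to test. *Trp53* had 0 and 0 counts in KO and 6 and 12 in WT. *Cdkn1a* had 3 and 4 in KO and 10 and 10 in WT, and *Mdm2* 12 and 9 in KO and 7 and 9 in WT. The list thus does not show whether these genes changed.

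Germ cell markers were low in all libraries and summed to 7.43 and 5.17 CPM in KO, against 8.30 and 7.76 CPM in WT, over 10 genes. Of these 2 were tested, *Sycp3* (log2 fold change −0.68) and *Sycp1* (−0.23), and 0 called. *Ddx4* and *Dazl* had at most 1 count in any library, but others of the list had more. *Sycp3* had 14 and 27 counts in KO and 20 and 31 in WT. *Sycp1* had 31 and 22 counts in KO and 22 and 27 in WT, and *Tex14* 24 and 19 in KO and 16 and 15 in WT. Lists for muscle (3 tested), keratinocytes (4), endothelium (2), immune cells (2) and melanocytes (3) gave 0 calls. *Trp63*, *Tek* and *Cd68* were listed at 0, but each has several IDs whose shared exons were not counted, so these zeros do not bear on expression. *Tyr*, the pigment enzyme, had 654 and 578 counts in KO and 314 and 550 in WT. Of 10 fibroblast markers, all of them tested, 1 was called, *Thy1*, with 1286 and 768 CPM in KO against 314 and 274 CPM in WT (log2 fold change 1.80, adjusted p = 0.00469). Without WT replicate 2 its adjusted p was 0.072. The collagen gene *Col1a1* was at 1237 and 2732 CPM in KO and 1791 and 3033 CPM in WT. *Vim* was at 5109 and 4671 CPM in KO and 5159 and 3660 CPM in WT. Of the same list *Lum*, a gene with a single ID, was near the limit, at 0.737 and 1.55 CPM in KO and 2.43 and 1.14 CPM in WT. *Pdgfra* was at 3.56 and 1.5 CPM in KO and 2.68 and 4.07 CPM in WT, and *Dcn* at 4.24 and 3.98 CPM in KO and 12.6 and 6.10 CPM in WT, each for 1 of its IDs.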

How the data were processed

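Total RNA depleted of rRNA was sequenced in 4 libraries. The deposited files hold raw counts per RefSeq transcript, which the authors made with cutadapt, TopHat2 version 2.0.9 on mm9 and htseq-count for reads with a mapping quality above 20. No source used here names the strand setting. Reads of *Rpl7l1*, *Rps10*, *Rps2*, *Rps28* and *Rpl23a* may thus include those of a gene on the opposite strand. Unassigned and ambiguous reads, 63.3% to 68.6% of each file, stayed out of library sizes.

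Transcripts were tested where both replicates of a genotype reached 1 CPM or more, with edgeR 4.0.16 in R 4.3.3 (TMM, glmQLFit and glmQLFTest, Benjamini-Hochberg adjusted p under 0.05 over 13855 rows). CPM use the reads given to transcripts and TMM factors of 0.980 to 1.03. Differences within a passage are log2 CPM with a prior count of 2. Standard errors came from the fold change and the test statistic. The procedure was tested on simulated data. Symbols came from RefSeq for GRCm38.p6 (32308 IDs matched), positions and exon lengths from GENCODE for NCBIM37, and levels per kilobase left out genes whose exons were over 5 times the coding length. Copies were sought with blastn 2.17.0. Python 3.11.15, pandas 2.3.3, scipy 1.17.1 and matplotlib 3.10.9 were used for tables and plots.

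The members and the gene lists were chosen with earlier results of these data known. Named are called members, paralogs with their parents, the 5 highest and 5 lowest members by fold change and by level per kilobase, the stalk genes and *Rpsa*, several-ID genes that were tested, called list genes with up to 2 more of the smallest p, and the 5 rows nearest to *Rpl39l*. Some genes are not reported by name here. Others are said to be chosen after their values were seen. Alternatives were RLE size factors, library totals, all reads as library size, DESeq2 1.42.0, no filter, sums per gene symbol, a replicate block and each library left out.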

Additional observations from a re-analysis of the deposited data

Results flagged for a closer look

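The KO minus WT difference had opposite signs at the 2 passages in the following results, and the difference between the passages was not tested, since each passage has 1 library per genotype. The median over the 68 tested single-ID genes without *Rpl39l* was 0.20 at passage 42 and −0.19 at passage 34, in log2 units. From passage 34 to 42 the median change of these genes was −0.34 within WT and 0.09 within KO. *Rpl22l1* stood at 0.43 at passage 42 and −0.96 at passage 34, *Rpl3* at 0.37 and −0.07, *Rpsa* at 0.33 and −0.11, *Rps27l* at 0.33 and −0.03, and *Rplp2* at 0.31 and −0.07, in the same order. *Rplp0* stood at 0.26 and −0.42, *Rps23* at 0.13 and −0.61, *Rps28* at 0.10 and −0.46, *Rps15a* at 0.068 and −0.59, *Rps4x* at 0.064 and −0.38, *Rps2* at 0.057 and −0.37, and *Rpl10* at 0.0071 and −0.33. *Rps16* ran the other way, at −1.38 at passage 42 and 0.35 at passage 34.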

How the results depend on the processing

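*Rpl39l* kept its call under every alternative run, with a log2 fold change between 5.36 and 5.41 in the fits with all 4 libraries and between 4.83 and 6.64 with 1 library left out. Members called lower numbered 0, except 1 (*Rps16*) without KO replicate 1, so the range with 1 library left out was 0 to 1. The median of the single-ID members lay between −0.14 and 0.18 with 1 library left out. Over all tested rows, 333 were called higher and 284 lower with all reads as library size, 406 and 334 with no filter, 265 lower with DESeq2, 47 to 626 higher and 62 to 665 lower with 1 library left out. Ribosome biogenesis had 1 called gene, *Nol10*, with all reads as library size, with DESeq2 and with no filter, and 0 to 3 with 1 library left out, mitochondrial ribosomal proteins 0 to 2, and the p53 list 0 to 1. The replicate number is also the passage, and libraries of the same passage deviated together with r = 0.175, too few pairs to treat as paired. The replicate block gave 563 rows higher and 529 lower, 3 genes of ribosome biogenesis (*Nol10*, *Rrs1*, *Ppan*), 2 translation factors (*Eif1a*, *Eif2s1*) and 2 of the mTORC1 list (*Mycn*, *Mtor*), and among members *Rpl39l* alone, at 5.41. Among fibroblast markers *Thy1* lost its call without WT replicate 2 (adjusted p = 0.072), and calls were gained by *Fbn1* (DESeq2, no filter, replicate block, without KO replicate 1), *Dcn* (no filter, replicate block, without KO replicate 2), *Col3a1* (no filter, without KO replicate 1) and *Col1a1* (without KO replicate 2). The cause of these changes was not tested.

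Of the 68 tested single-ID members without *Rpl39l*, 50 changed sign with at least 1 of the libraries left out, among them 12 whose levels or fold changes are given above. Leaving out KO replicate 2 or KO replicate 1 gave log2 fold changes of −0.76 or 0.13 for *Rpl22l1*, −0.46 or 0.039 for *Rps28*, −0.025 or 0.27 for *Rpl3*, and 0.37 or −1.47 for *Rps16*. Between the fits without WT replicate 2 and without WT replicate 1 the value ran from −0.14 to 0.62 for *Rplp1*, −0.40 to 0.10 for *Rpl10*, −0.37 to 0.23 for *Rplp0*, −0.34 to 0.048 for *Rps2*, −0.56 to 0.098 for *Rps23*, −0.018 to 0.27 for *Rplp2*, −0.072 to 0.38 for *Rps27l* and −0.14 to 0.39 for *Rpsa*. By CPM without length *Rpl39l* ranked 69 of 69 members. With 2 libraries per genotype and a biological coefficient of variation of 21.8%, the standard error of a member's fold change was typically 0.224, which limits what could be called.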
